A study of Rattus norvegicus with 64 samples.

Results

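Synaptic vesicle and release genes were followed across 64 samples of rat entorhinal cortex. The list held 48 genes, chosen for their place in the vesicle cycle with earlier results of these data known. All 48 were found among the 17260 genes of the count tables. They comprised 10 vesicle proteins, 13 synaptotagmins, 9 SNARE proteins and cofactors, 12 active zone and Rab3 proteins, 2 endocytosis proteins and 2 vesicular glutamate transporters. All 48 passed the filter on low counts and were tested together with the rest of the 12521 genes.

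The samples came from Long Evans rats, an outbred strain, with no treatment or genetic change named. Layer II (LII) and the deep layers (LDeep) of the medial (MEC) and lateral (LEC) entorhinal cortex were dissected by eye under a microscope from slices of fixed thickness. The paper defines LDeep of MEC as layers III to VI. Each of the 4 combinations of region and layer was taken at P2 (5 samples), P9 (4 samples), P23 (3 samples) and P45 (4 samples), where P is the postnatal day. Such a dissected piece holds every cell type of the layer, its vessels and any tissue at its edge. In bulk tissue of this kind, fewer cells of a type and less RNA per cell cannot be told apart.

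A presynaptic terminal stores transmitter in vesicles that are filled by a transporter, tethered and primed at the active zone, and fused by SNARE proteins when a synaptotagmin binds calcium. The membrane is then retrieved by endocytosis and the vesicle refilled. Several steps are served by families of closely related genes whose members differ in calcium affinity, kinetics or the neurons that carry them, and the cortex exchanges some members for others as its synapses mature.

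Total counts per sample ran from 3894334 to 11439143 with a median of 7569157.5, so that 1 count was worth 0.0874 to 0.257 CPM, a sample's counts scaled to a common library size. Over all samples, the 5 tested layer II markers were all higher in LII and the 8 deep layer markers all higher in LDeep. In 5 libraries the root mean square deviation from the group median exceeded 0.6 on the log2 scale, and in 5, 1 of them the same, a cerebellar granule cell list summed to over 150 CPM. The library labelled MEC LII P2 replicate 1 belonged to both: its excitatory neuron list summed to 4.30 CPM, against 250.3 to 368 CPM in the other 4 libraries of that group, and its cerebellar list to 1061 CPM. Meningeal fibroblast markers summed to 160 and 189 CPM in MEC LII P2 replicates 1 and 3, against 992 to 1698 CPM in the rest of that group. Their layer II lists summed to 761 and 1131 CPM, against 1139 to 1659 CPM. In MEC LDeep P2 replicate 1 the meningeal list summed to 1345 CPM, against 142 to 276 CPM in the rest of its group. Its layer II list summed to 918 CPM, against 382 to 570 CPM. These libraries were all among the 5 of large deviation. The libraries labelled MEC LDeep P2 replicate 4 and LEC LDeep P45 replicate 4 had the highest shares of ribosomal RNA, at 0.461% and 0.410% of counts. Values without these libraries are given beside the results that they changed most.

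The promoters of 5 members are shown here, because 4 of them form the pairs Vamp1 and Vamp2, and Slc17a7 and Slc17a6, whose balance is described after the age differences, and Syn1 shares a motif with Vamp1. RefSeq promoters (build GRCr8) were matched for 36 of the 48 genes. Each line gives the 250 bases before the annotated start, 5′ to 3′ on the gene's strand. Capitals mark matches to TGACGTCA, the cAMP response element (CRE), to the GC box GGGGCGGGG and to the Egr1 motif GCGTGGGCG, on either strand.
Vamp1 (chr4:159698644-159698893, plus strand): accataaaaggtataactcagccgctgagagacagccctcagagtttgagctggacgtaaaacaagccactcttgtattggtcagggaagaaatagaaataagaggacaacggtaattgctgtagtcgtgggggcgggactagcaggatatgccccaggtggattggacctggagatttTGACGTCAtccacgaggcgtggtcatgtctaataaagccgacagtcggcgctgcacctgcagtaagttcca
Vamp2 (chr10:54292539-54292788, plus strand): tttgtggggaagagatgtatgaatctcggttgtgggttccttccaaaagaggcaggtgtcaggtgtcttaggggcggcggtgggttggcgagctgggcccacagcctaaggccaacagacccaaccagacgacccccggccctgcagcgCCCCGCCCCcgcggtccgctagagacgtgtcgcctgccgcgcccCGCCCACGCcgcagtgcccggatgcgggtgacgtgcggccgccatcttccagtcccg
Slc17a7 (chr1:104785955-104786204, plus strand): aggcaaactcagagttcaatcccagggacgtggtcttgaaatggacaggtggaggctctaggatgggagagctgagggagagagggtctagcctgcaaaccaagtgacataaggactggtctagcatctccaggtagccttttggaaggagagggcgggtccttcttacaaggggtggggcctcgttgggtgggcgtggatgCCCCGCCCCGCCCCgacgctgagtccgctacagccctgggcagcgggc
Slc17a6 (chr1:110348197-110348446, plus strand): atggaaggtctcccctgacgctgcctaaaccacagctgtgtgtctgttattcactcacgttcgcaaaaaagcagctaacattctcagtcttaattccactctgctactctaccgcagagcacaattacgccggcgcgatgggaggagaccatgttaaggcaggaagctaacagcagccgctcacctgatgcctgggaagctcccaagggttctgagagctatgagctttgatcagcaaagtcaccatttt
Syn1 (chrX:3725495-3725744, plus strand): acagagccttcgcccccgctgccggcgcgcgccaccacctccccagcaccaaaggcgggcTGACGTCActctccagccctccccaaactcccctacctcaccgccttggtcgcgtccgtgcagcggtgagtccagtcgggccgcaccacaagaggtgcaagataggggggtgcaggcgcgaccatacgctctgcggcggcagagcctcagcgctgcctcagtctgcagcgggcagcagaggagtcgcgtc

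The CRE was found in 2 of the 36 promoters, those of Vamp1 and Syn1, and in 2.17% of all 17316 promoters of this length. In Vamp1 it began 71 bases before the start, and in Syn1 190 bases before it. The GC box was found in 8 of the 36 promoters (22.2%) and in 13.7% of all. Slc17a7 held a pair of overlapping GC boxes in the last 48 bases before its start, and Vamp2 a GC box followed by an Egr1 motif. Slc17a6 and Vamp1 held no exact match to GGGGCGGGG in this window, though Vamp1 held ggggcggga, which differs in the last letter alone. The motif TATAAA was found in 0 of the 36 promoters and in 11.8% of all. These matches describe letters in a fixed window and were not compared with expression.

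Levels are given as log2 CPM, with the sample scaling of edgeR and a prior count of 2, and differences as log2 fold changes (LFC) with their standard error (SE). Adjusted p values are those of edgeR's quasi-likelihood test with Benjamini-Hochberg (BH) adjustment over all genes tested, and a gene is called where this p is below 0.05. Shares of all genes called were taken in the main fit to all 64 samples only, so counts under other fits have no share beside them. Nothing in the labels says whether the samples of one age and number came from the same animal, so that p values measure the spread between these samples and not between animals.

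The first comparison asked how the release machinery differed between younger (P2 and P9) and older (P23 and P45) cortex. Of the 48 genes, 36 were higher in the older samples, where 41.0% of all genes tested were called in that direction, and 7 were lower, where 40.6% of all were called. The median LFC of the list was 1.00, against 0.01 over all genes. As the list was chosen with earlier results of these data known, these contrasts with all genes are descriptive. The summed level of the list ran from 5343 to 9802 CPM over the 20 P2 samples and from 13882 to 25547 CPM over the 16 P45 samples. Within a single combination of region and layer, 19 to 23 genes had every older sample above every younger one, against 13.5% to 15.1% of all genes, and 2 to 4 genes had them all below, against 12.2% to 13.1% of all. In 14 genes every older sample lay above every younger sample in all 4 combinations of region and layer, a pattern found in 6.66% of all genes. Doc2b showed the opposite pattern in all 4 combinations, as did 6.41% of all genes.

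**Figure D1:**
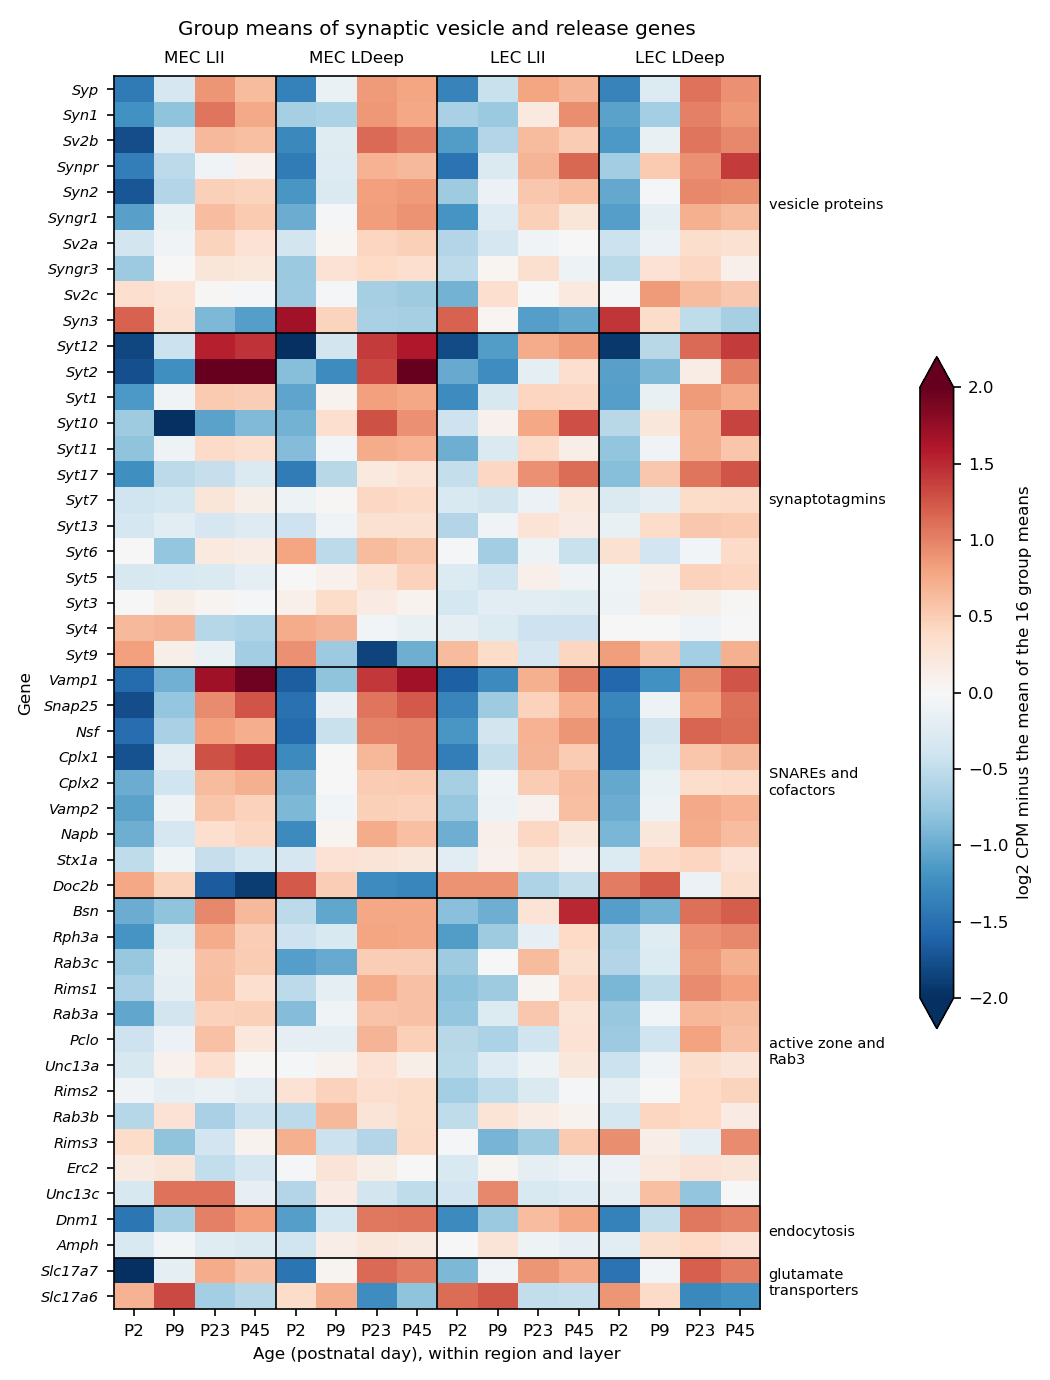
Mean log2 CPM of each of the 48 genes (rows, grouped by role) in the 16 groups (columns, 3 to 5 samples each), as the difference from the gene's mean over the groups. Most rows pass from blue at P2 to red at P23 and P45 in all 4 combinations of region and layer, while Syn3, Doc2b and Slc17a6 pass the other way.

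Cell type markers moved with age in the same samples. The oligodendrocyte list was called higher in 10 of 10 genes and its sum rose from 118 to 186 CPM over P2 samples to 880 to 12825 CPM over P45 samples. The astrocyte list was called higher in 7 of 8 genes. The sum of 10 general neuronal markers had a median of 8260 CPM at P2 and 5311 CPM at P45, with 4 genes called higher and 3 lower. The part of these shifts in the age differences of the release genes was not tested.

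Among the vesicle proteins, 8 of 10 rose with age and 1 fell. Synaptophysin (Syp), an abundant membrane protein of the vesicle, had levels of 6.69 to 7.34 with a median of 7.0 at P2, and of 8.80 to 9.75 with a median of 9.10 at P45. Its LFC was 1.65 ± 0.05 (SE, adjusted p = 8.70e-35). The synapsins, which tether vesicles to one another and to actin, divided: Syn2 rose by 1.36 ± 0.09 and Syn1 by 1.63 ± 0.17, while Syn3 fell. Syn3 ran from 5.80 to 7.39 with a median of 6.31 at P2, from 4.69 to 5.83 with a median of 5.21 at P9, and from 3.60 to 5.04 with a median of 4.15 at P45. Its P2 and P45 samples did not overlap, and the LFC was -1.69 ± 0.08 (adjusted p = 1.71e-25). Of the SV2 glycoproteins of the vesicle membrane, Sv2b rose by 1.59 ± 0.09 and Sv2a by 0.56 ± 0.05, and Sv2c was not called (-0.14 ± 0.19).

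The synaptotagmins, calcium sensors and related C2 domain proteins, moved in both directions, with 10 of 13 higher, 2 lower and Syt3 not called (-0.02 ± 0.05). Syt12, an atypical member that lacks calcium binding, had the steepest rise among them. Its samples lay between 1.71 and 3.52 at P2 (median 2.22), between 2.04 and 4.51 at P9 (median 3.78) and between 4.73 and 6.0 at P45 (median 5.68). No older sample overlapped a younger one within any combination, and the LFC was 2.5 ± 0.09 (adjusted p = 1.22e-30). Syt2, a fast sensor of many inhibitory and hindbrain synapses, rose by 2.45 ± 0.24 (adjusted p = 6.89e-14) from a level near the limit of detection, with a median of 1.51 at P2 and 1.60 at P9 that reached 3.52 at P23 and 4.79 by P45. Syt1, the main fast sensor of forebrain synapses, rose by 1.26 ± 0.05 from a far higher level than Syt2.

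Syt4, a member found on dense core vesicles, fell by 0.61 ± 0.08 on the log2 scale (adjusted p = 3.24e-10). Its samples ran from 8.14 to 9.99 at P2 and from 7.90 to 8.93 at P45, so the ages overlapped. Syt9 had an LFC of -0.86 ± 0.15 (adjusted p = 1.04e-06) at a low level: its median was 2.61 in P2 samples, 1.99 in P9, 1.02 in P23 and 1.54 in P45 samples. The other called synaptotagmins had LFC between 0.29 (Syt5) and 1.12 (Syt10).

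Of the 9 SNARE proteins and cofactors, 8 rose and 1 fell. Vamp1, a vesicle SNARE, had the largest LFC of the whole list. Its samples ran from 3.44 to 4.82 at P2 with a median of 3.77, from 3.75 to 5.15 at P9 with a median of 4.45, from 6.10 to 7.26 at P23 with a median of 6.65, and from 5.88 to 7.62 at P45 with a median of 7.09. Every P23 and P45 sample stood above every P2 and P9 sample, with an LFC of 2.65 ± 0.09 (6.27-fold, adjusted p = 4.69e-33). Vamp2, the main vesicle SNARE of the forebrain, rose by 1.04 ± 0.09, and Snap25, a SNARE of the plasma membrane, by 1.89 ± 0.06 (adjusted p = 8.44e-35). Snap25 had a median of 8.33 at P2 (7.73 to 8.69), 9.22 at P9 (8.70 to 10.13), 10.63 at P23 (10.09 to 10.90) and 10.85 at P45 (10.10 to 11.21).

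Nsf, the ATPase that takes spent SNARE complexes apart, rose by 1.84 ± 0.06, and Cplx1, a complexin that clamps and promotes fusion, by 1.67 ± 0.05. Stx1a, the other SNARE of the plasma membrane, rose by 0.16 ± 0.05 (adjusted p = 0.00525). Doc2b, a high-affinity calcium sensor linked to spontaneous release, fell. Its samples ran from 4.09 to 6.49 at P2 (median 5.58) and from 2.07 to 5.30 at P45 (median 3.56), with an LFC of -1.78 ± 0.12 (adjusted p = 1.71e-20).

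In the active zone and Rab3 group 8 of 12 genes rose and 2 fell. The scaffold Bsn rose by 1.83 ± 0.17, the scaffold Rims1 by 1.13 ± 0.09, the Rab3 effector Rph3a by 1.22 ± 0.12, and the vesicle GTPases Rab3a and Rab3c by 1.05 ± 0.04 and 1.15 ± 0.06. Pclo (0.82 ± 0.15), the priming factor Unc13a (0.38 ± 0.08) and Rims2 (0.22 ± 0.05) were also called higher, but none of these was called with the share of ribosomal RNA as a covariate (0.11, -0.01 and 0.06), and the LFC of Rims2 was -0.04 in MEC alone. Unc13c and Erc2 fell by 0.32 ± 0.09 and 0.12 ± 0.05 on the log2 scale, but both were highest at P9. Their means at P2, P9, P23 and P45 were 4.95, 6.02, 5.23 and 5.09 for Unc13c. For Erc2 they were 7.63, 7.89, 7.63 and 7.65. Rims3 (-0.01 ± 0.13) and Rab3b (0.07 ± 0.06) were not called.

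Dnm1, the dynamin that cuts endocytic vesicles from the membrane, rose by 1.85 ± 0.07 (adjusted p = 2.54e-30), from a median of 8.08 at P2 (7.60 to 9.03) and 8.81 at P9 (8.53 to 9.37) to 10.41 at P23 (9.98 to 10.75) and 10.29 at P45 (9.73 to 11.11). Amph, an adaptor for dynamin, was not called (0.07 ± 0.04). The glutamate transporters diverged: Slc17a7 (VGLUT1) rose by 1.65 ± 0.15 and Slc17a6 (VGLUT2) had an LFC of -1.74 ± 0.12 (adjusted p = 2.54e-19). Slc17a6 had medians of 6.29 at P2 (4.24 to 7.65), 6.51 at P9 (5.67 to 6.91), 4.55 at P23 (3.71 to 4.95) and 4.67 at P45 (3.83 to 5.58). The P9 samples all stood above the P23 and P45 samples, while the lowest P2 samples, 4.24 in MEC LII replicate 1 among them, fell within the older range. In MEC LII P2 replicate 1 Slc17a7 had 6 counts, against 1663 to 3798 in the other 4 of its group.

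**Figure D2:**
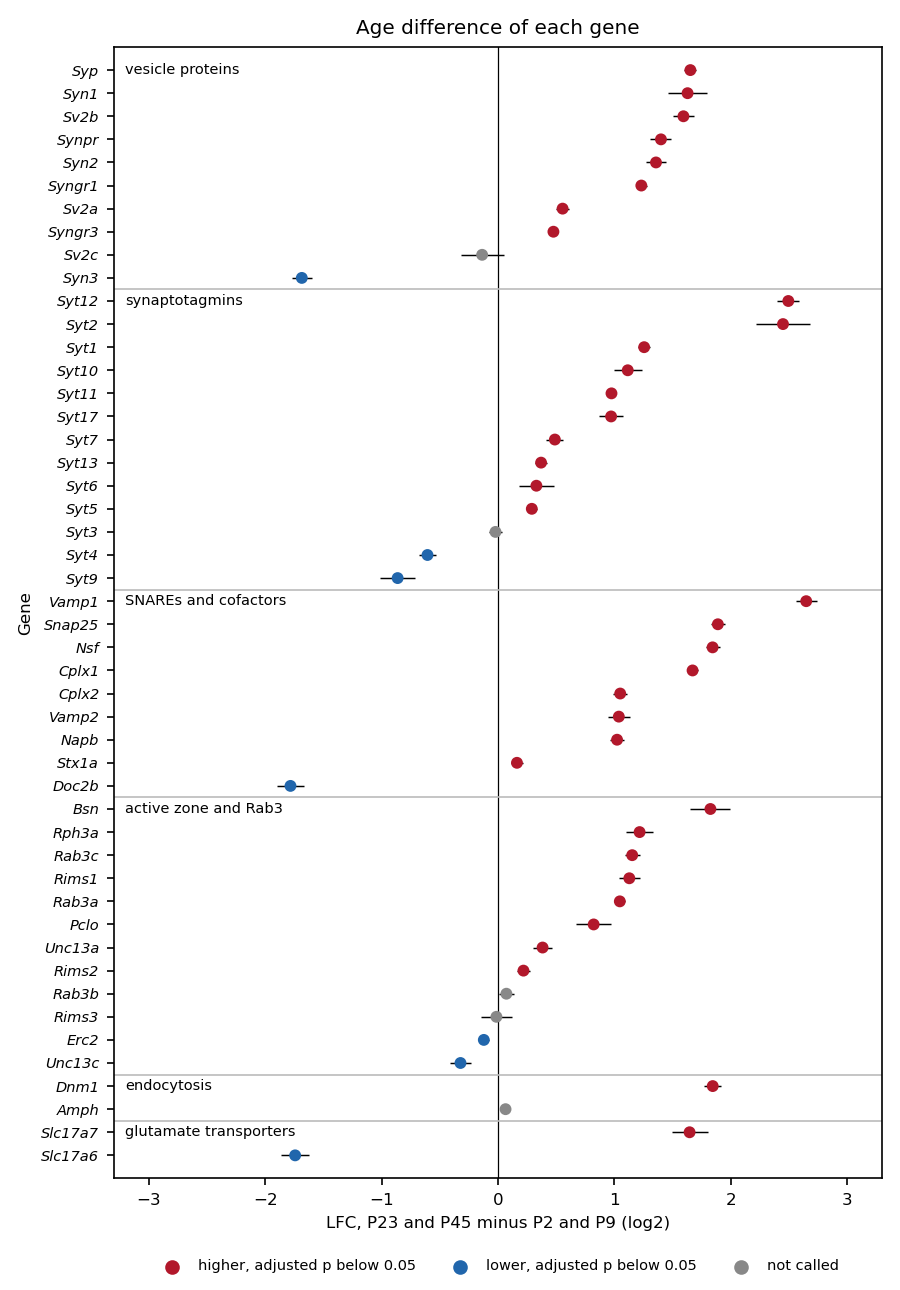
LFC between older (P23 and P45) and younger (P2 and P9) samples for each of the 48 genes, with bars of 1 SE from the fit over 64 samples. Vamp1, Syt12 and Syt2 lie farthest right at 2.65, 2.5 and 2.45, and Doc2b, Slc17a6 and Syn3 farthest left at -1.78, -1.74 and -1.69.

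Leaving out the 5 libraries of large deviation, or all 9, kept 36 and 7 as the counts of genes called higher and lower. The share of ribosomal RNA rose with age, from medians of 0.0168% at P2 and 0.0194% at P9 to 0.0563% at P23 and 0.0743% at P45. In MEC LDeep P2 replicate 4 and LEC LDeep P45 replicate 4, the libraries with the highest shares, Bsn and Syn1 stood above the rest of their groups. In LEC LDeep at P45 Bsn stood at 8.81, 9.13, 8.75 and 11.43 in replicates 1 to 4, and Syn1 at 7.56, 7.67, 7.45 and 10.10. With the log2 share as a covariate 31 genes were called higher and 6 lower, the latter including a gene not called lower in the main fit. Besides Pclo, Unc13a and Rims2, Syt7 (0.13, adjusted p = 0.143) and Syt6 (-0.08, adjusted p = 0.734) were then no longer called higher, nor Erc2 (-0.07) and Unc13c (-0.27) lower. The LFC was then 0.95 for Bsn, 0.72 for Syn1, 0.63 for Rims1, 0.65 for Rph3a and 0.57 for Vamp2, all still called. As the share itself differed between ages, it and age cannot be fully told apart.

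Most of the age difference arose in 2 steps. From P2 to P9, 32 genes rose (31.6% of all genes tested did so) and 4 fell (31.8% of all). From P9 to P23, 33 rose (32.5% of all) and 8 fell (32.1% of all). From P23 to P45 a single gene was called higher, Rims3 (1.99% of all), and 0 were called lower (1.86% of all). At an unadjusted p below 0.05 edgeR gave 5 higher and 2 lower in this last step, with no share over all genes taken at that threshold. DESeq2 called 1 lower after adjustment. Without the 5 libraries of large deviation 4 genes were called higher in this step, and 3 without the 9. Syt1 and Slc17a7 had the larger LFC in the first step (1.02 ± 0.07 and 1.38 ± 0.20, against 0.77 ± 0.07 and 1.03 ± 0.23), and Vamp1 in the second (0.53 ± 0.12, then 2.23 ± 0.13). Doc2b and Slc17a6 had LFC of -0.28 ± 0.14 and 0.04 ± 0.15 in the first step, neither called, and of -1.67 ± 0.17 and -1.85 ± 0.18 in the second. Syn3 fell in both (-1.07 ± 0.10 and -1.12 ± 0.12). The sizes of the steps were not tested against each other.

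A few genes passed through an extreme at the middle ages. Unc13c, a Munc13 of restricted distribution, rose by 1.07 ± 0.12 to P9 and then fell by 0.81 ± 0.14 on the log2 scale to P23. Rab3b rose by 0.88 ± 0.08 and fell by 0.37 ± 0.09 over the same steps. Rims3, a short RIM, took the opposite course: it fell by 1.06 ± 0.17 to P9 and rose by 0.95 ± 0.20 from P23 to P45 (adjusted p = 0.00139), with samples of 3.3 to 5.54 at P2, 2.64 to 4.53 at P9, 2.81 to 4.51 at P23 and 3.72 to 5.21 at P45. Without replicate 3 of P23 its last step was 0.75 with an adjusted p = 0.0533. Syt6 fell by 0.96 ± 0.20 to P9 and rose by 0.80 ± 0.22 to P23, the latter with adjusted p = 0.0635 without replicate 2 of P23. Its mean was 2.25 at P2 and 2.14 at P45, although it was called higher in the older samples.

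**Figure D3:**
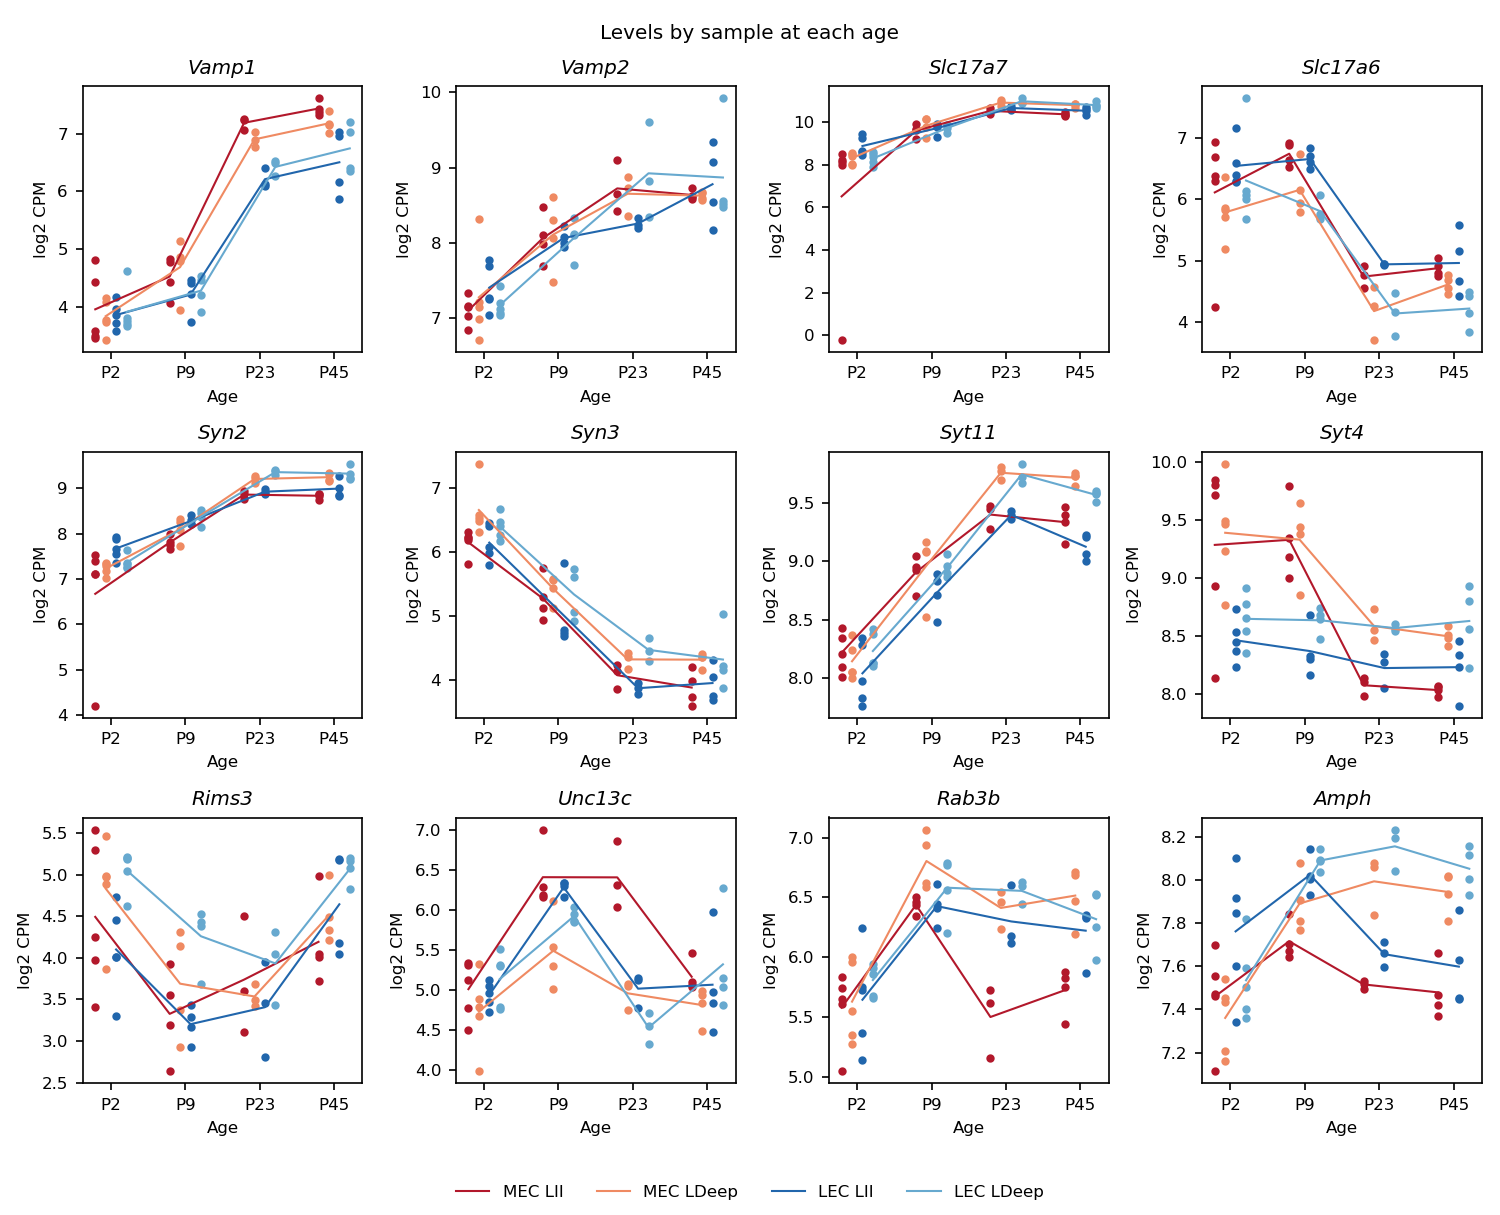
log2 CPM of 12 genes by age, with 1 point a sample (64 a gene) and lines through the means of the 4 combinations of region and layer. Vamp1, Slc17a7, Syn2 and Syt11 rise beside Slc17a6, Syn3 and Syt4, which fall. Rims3 is lowest at P9 and P23, and Unc13c and Rab3b are highest at P9 in most combinations. The lone Slc17a7 point at -0.21 is MEC LII P2 replicate 1.

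Ratios of related genes within a sample, corrected for exon length and given as log2 values with no test, showed how the balance within families stood at each age. Slc17a7 over Slc17a6 had a median of 3.14 in P2 samples and 4.21 in P9 samples, and of 7.14 and 7.12 in those of P23 and P45, and the 28 older samples (6.09 to 8.12) lay above the 36 younger ones (-3.46 to 5.32). Syn2 over Syn3 went from a median of 0.57 at P2 to 2.46 at P9 and 4.66 at P45, again with no overlap between younger and older samples. Vamp1 remained the minor partner of Vamp2 in all 64 samples, with a median ratio of -3.84 in younger and -1.97 in older samples. Syt4 over Syt11 moved from -0.42 at P2 to -2.24 at P45. Syngr3 exceeded Syngr1 in 29 of 36 younger and in 0 of 28 older samples, the medians being 0.26 and -0.54. Both synaptogyrins rose with age, by 0.48 ± 0.04 and 1.23 ± 0.05.

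Other pairs shifted less or overlapped. Cplx1 over Cplx2 had medians of -1.0 at P2 and -0.05 at P45, with the exon length listed for Cplx2 only 900 bases. Syt1 exceeded Syt2 in every sample, with medians of 7.29 in younger and 6.19 in older samples. Rims1 over Rims3 had its highest median, 2.96, at P23, and Unc13a over Unc13c its lowest, 2.4, at P9. Rab3a over Rab3b went from a median of 1.99 in younger to 2.88 in older samples, Rab3a over Rab3c stayed at 1.79 and 1.77, and Syp over Synpr at 3.51 and 3.72. Syn1 over Syn2 had medians of -1.33 and -1.09, Sv2a over Sv2c of 4.48 and 4.85, Sv2b over Sv2c of 4.34 and 5.78, and Syt3 over Syt10 of 3.18 and 1.83.

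Per kilobase of listed exon, the most abundant members at P45 were Snap25 (890 CPM per kb), Slc17a7 (796 CPM per kb) and Syp (652 CPM per kb). At P2 they were Rab3a (194 CPM per kb), Slc17a7 (171 CPM per kb) and Syt11 (161 CPM per kb), close above Snap25 at 152 CPM per kb. The lowest at P45 were Syt9 (2.4 CPM per kb) and Syt6 (2.66 CPM per kb).

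A list of 81 other presynaptic genes, of which 75 were tested, held 44 genes that were higher with age, 16 that were lower and 15 not called, where 41.0% of all genes were called higher and 40.6% lower. Its median LFC was 0.32. The largest rises were those of the complexin Cplx3 (1.99 ± 0.17), the endocytic adaptor Pacsin1 (1.86 ± 0.08) and the synuclein Sncg (1.62 ± 0.21). The largest falls were those of Lin7c, a scaffold (-1.31 ± 0.06), Rab3d (-0.96 ± 0.05) and Erc1 (-0.91 ± 0.07).

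The comparison of layers asked how LII, in which stellate cells are abundant in MEC, differed from LDeep, which in MEC takes in layer III. Of the 48 genes 31 were lower in LII (30.5% of all genes tested) and 3 were higher (23.5% of all). The median LFC was -0.22, against -0.05 over all genes, and, apart from Syt10, the LFC of the genes lower in LII lay between -0.54 (Rims2) and -0.13 (Syngr3). By role, 8 of 10 vesicle proteins, 9 of 13 synaptotagmins, 5 of 9 SNARE proteins and cofactors, 7 of 12 active zone and Rab3 proteins and both endocytosis proteins were lower in LII.

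Marker lists moved with layer as well. Meningeal fibroblast markers summed to a median of 1236 CPM in LII and 286 CPM in LDeep, endothelial markers to 333 and 198 CPM, and astrocyte markers to 3463 and 1974 CPM. All 5 tested excitatory neuron markers and 7 of 10 general neuronal markers were lower in LII. The part of these in the lower levels of the release genes was not tested. Of the other presynaptic genes, 49 of 75 were also lower in LII (30.5% of all genes) and 9 higher (23.5% of all), with Cplx3 (-3.29 ± 0.17), Sh3gl3 (-0.64 ± 0.06) and Sh3gl2 (-0.51 ± 0.09) lowest and Syt15 (2.08 ± 0.25), Sncg (1.78 ± 0.21) and Syngr2 (0.47 ± 0.09) highest.

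Rims2, a scaffold that docks and primes vesicles, was lower in LII in each of 8 comparisons of region and age, with no overlap of samples in 6 of them. At P9 it stood at 7.20, 7.13, 6.98 and 7.19 in MEC LII and at 7.83, 7.80, 7.53 and 8.0 in MEC LDeep. The LFC over all samples was -0.54 ± 0.05 (adjusted p = 1.77e-12). Rph3a (-0.50 ± 0.12), Synpr (-0.46 ± 0.09), a synaptophysin relative, Syt6 (-0.45 ± 0.15) and Syt5 (-0.44 ± 0.04) were next in size. Rims1 (-0.25 ± 0.09) was no longer called without the 5 libraries of large deviation (-0.15, adjusted p = 0.0687).

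The 3 genes higher in LII were Slc17a6, Unc13c and Syt9. The mean of Slc17a6 was higher in LII in 8 of 8 comparisons, with an LFC of 0.55 ± 0.12 (adjusted p = 7.31e-05). At P9 its LEC samples stood at 6.70, 6.50, 6.83 and 6.60 in LII and at 6.06, 5.72, 5.67 and 5.75 in LDeep, with no overlap. Unc13c had an LFC of 0.42 ± 0.09 (adjusted p = 0.000139), and at P23 its MEC samples stood at 6.31, 6.86 and 6.04 in LII and at 5.05, 5.08 and 4.75 in LDeep. Syt9 had an LFC of 0.41 ± 0.15 (adjusted p = 0.0190), which was 0.25 (adjusted p = 0.110) without MEC LII P23 replicate 2, a library with a cerebellar list of 1024 CPM.

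Within MEC alone 5 genes were higher in LII (21.0% of all genes) and 19 lower (19.9% of all), and within LEC 1 was higher (17.4% of all) and 22 lower (21.2% of all). Without replicate 2 of P23, left out in both regions and both layers, the lower genes were 8 in MEC and 11 in LEC. The median LFC of all genes moved as well, from -0.030 to -0.013 in MEC and from -0.057 to -0.014 in LEC. The fall in count therefore cannot be read as particular to the release genes. The layer difference itself differed between regions for Sv2c (0.942% of all genes were called in its direction) and for Syt10 (0.303% of all). Syt10 stood at -0.39, 0.79, 0.13 and 0.97 in MEC LII at P9, against 3.55, 3.48, 2.49 and 3.00 in MEC LDeep. At P45 it stood at 1.8, 2.00, 2.19 and 1.65 against 3.83, 3.33, 4.09 and 3.59. No sample overlapped at either age. At P2 it stood at 3.37, 1.94, 1.4, 1.77 and 1.91 in MEC LII, the first being the library with few excitatory markers, and at 2.61, 0.95, 1.43, 2.11 and 2.10 in MEC LDeep, and the groups overlapped. The LFC was -1.70 ± 0.18 in MEC and 0.02 ± 0.16 in LEC, a difference of -1.72 ± 0.24 (adjusted p = 6.04e-06).

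For Sv2c the LFC was 0.97 ± 0.26 in MEC and -0.62 ± 0.26 in LEC, the latter not called, with a difference of 1.59 ± 0.37 (adjusted p = 0.0128). Its MEC LII P2 samples stood at 6.13, 2.12, 6.46, 2.25 and 2.59, so that replicates 1 and 3, both among the libraries of large deviation, were far above the rest. Without the 5 libraries of large deviation the difference was 0.82 (adjusted p = 0.0243) and the LFC in MEC 0.24 (adjusted p = 0.213). Without replicate 2 of P23 the difference was 1.42 (adjusted p = 0.0981), without replicate 3 of P23 1.54 (adjusted p = 0.0677) and without replicate 3 of P9 1.48 (adjusted p = 0.0554). With the replicate number as a block, 4 genes (fixed block, edgeR) or 2 (random block, limma) were called in the direction of Sv2c.

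**Figure D4:**
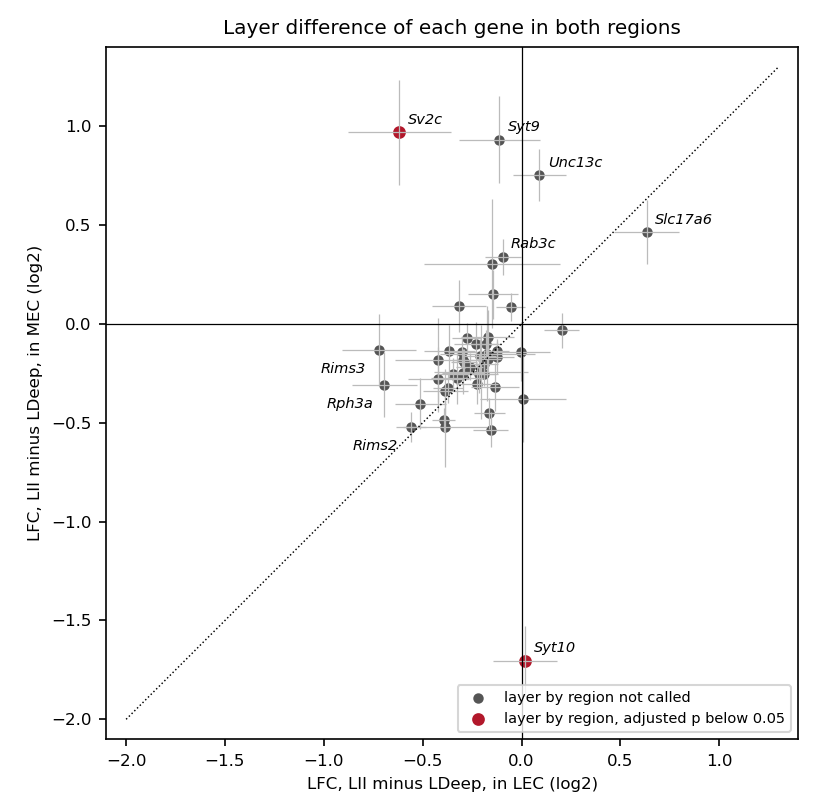
LFC between LII and LDeep in MEC (vertical) against LEC (horizontal) for the 48 genes, with bars of 1 SE and a dotted line where both are equal. Most genes lie below 0 on both axes. Syt10 (-1.70 in MEC, 0.02 in LEC) and Sv2c (0.97 and -0.62), in red, are the genes whose layer difference differed between regions.

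The layer difference changed with age for 5 genes. Oligodendrocyte markers moved in the same comparison, with 8 of 10 relatively lower in LII at the older ages (median change -1.91), and their part in it was not tested. Cplx1 was the gene that became relatively higher in LII (4.83% of all genes were called in that direction): the mean of LII minus that of LDeep was -0.23 at the younger and 0.25 at the older ages, a change of 0.46 ± 0.10 (adjusted p = 0.00129). In MEC at P45 its group means were 9.80 ± 0.11 in LII and 9.41 ± 0.10 in LDeep (SD, n = 4 each). Changes toward LDeep (3.97% of all genes) were called for 4 genes, but this count depended on which libraries were included. It was 14 without the 5 libraries of large deviation, 11 without the 9 and 8 with the ribosomal RNA covariate. It was 9 without MEC LII P2 replicate 1 or without MEC LDeep P2 replicate 4, 7 without LEC LDeep P45 replicate 4, and 2 without replicate 2 of P23. The share of all genes was not taken in these fits, so the changes in count cannot be read as particular to the release genes. Amph went from 0.02 to -0.47 (adjusted p = 1.20e-05), Erc2 from -0.03 to -0.45 (adjusted p = 0.00151), Rab3c from 0.34 to -0.13 (adjusted p = 0.0125) and Syt11 from -0.10 to -0.38 (adjusted p = 0.0165). Rab3c and Syt11 were not called without replicate 2 of P23 (adjusted p = 0.0896 and 0.0606), nor Syt11 without the 9 libraries (-0.24, adjusted p = 0.0622).

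The last comparison set MEC, which holds grid and other spatial cells, against LEC, which carries more object-related input. Of the 48 genes 8 were higher in MEC (8.87% of all genes tested) and 10 lower (6.53% of all), with a median LFC of -0.00 against 0.01 over all genes. Of the 13 synaptotagmins 4 were lower, 3 higher and 6 not called, with a median LFC of 0.08. Syt17, an atypical member, had a lower mean in MEC in 8 of 8 comparisons of layer and age, with no overlap in 6. At P45 it stood at 5.64, 5.36, 6.08 and 5.45 in MEC LII and at 7.13, 6.84, 6.95 and 7.19 in LEC LII, and the LFC over all samples was -0.94 ± 0.10 (adjusted p = 6.51e-10).

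Syt10 (-0.88 ± 0.12), Doc2b (-0.76 ± 0.11), Syt9 (-0.65 ± 0.15) and Synpr (-0.55 ± 0.09) were also lower in MEC, and Syt13, Syn2, Stx1a, Rab3c and Amph by 0.19 to 0.25 on the log2 scale. The low value of Syt10 was that of MEC LII: from P9 to P45 its group means in MEC LDeep were 3.13, 4.07 and 3.71, against 3.01, 3.51 and 4.14 in LEC LDeep. Higher in MEC were Vamp1 (0.44 ± 0.09, adjusted p = 0.000138), Syt4 (0.37 ± 0.08), Syt12 (0.33 ± 0.09), Cplx1 (0.28 ± 0.05) and Sv2a (0.22 ± 0.05), with Rims2, Syt3 and Syngr1 at 0.16 to 0.21. At P23 the group of MEC LII had Vamp1 between 7.07 and 7.26 and that of LEC LII between 6.10 and 6.41. Among the other presynaptic genes 13 of 75 were higher in MEC (8.87% of all genes) and 5 lower (6.53% of all), led by Rab27b (0.64 ± 0.09) and Stxbp6 (-0.60 ± 0.09).

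**Figure D5:**
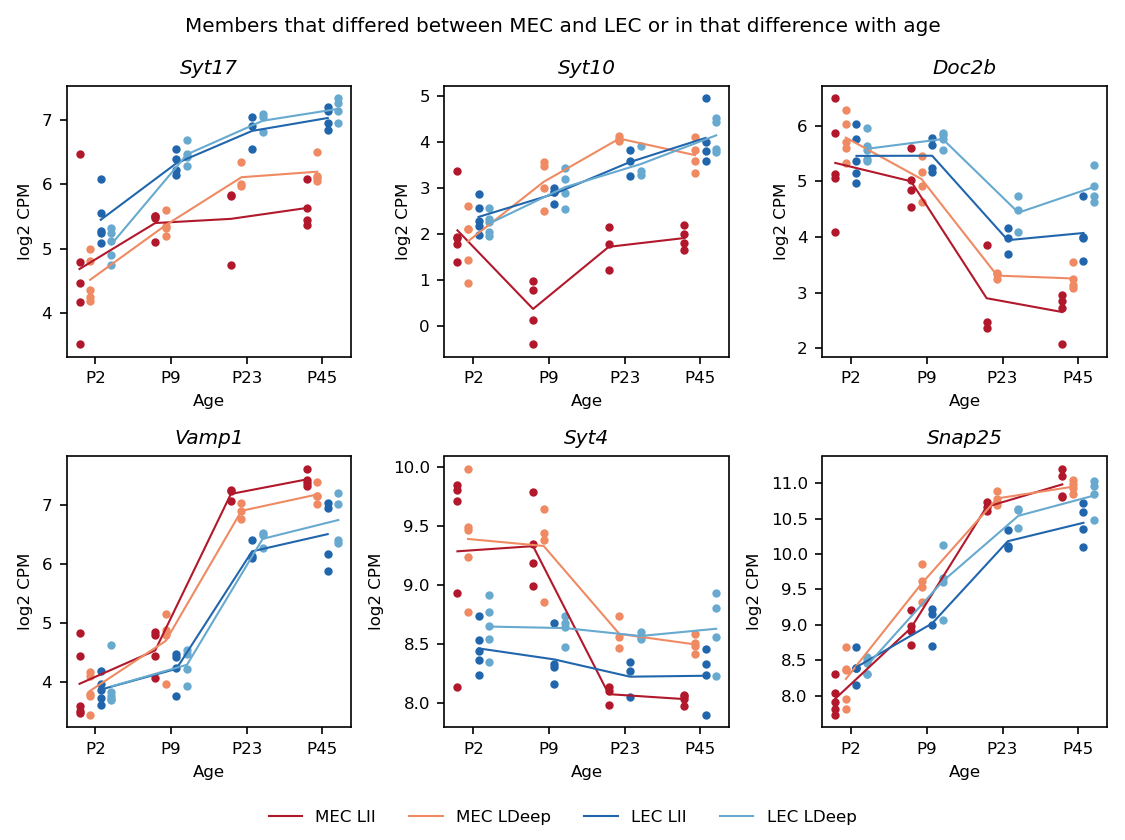
log2 CPM of 6 genes by age, with 1 point a sample (64 a gene) and lines through the means of the 4 combinations of region and layer. Syt17 lies lower in MEC than in LEC from P9 on in both layers, Syt10 is low in MEC LII alone from P9 on, and Syt4 is higher in most MEC than LEC samples at P2 and P9 but not later.

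The regional difference changed with age for 6 genes, 2 toward MEC (2.08% of all genes) and 4 toward LEC (2.30% of all). Toward MEC there were 4 with either replicate block, without the 5 libraries of large deviation, without MEC LII P2 replicate 3 or without replicate 2 of P45, and 5 without the 9 libraries. Oligodendrocyte markers moved with region too: 5 of 10 were higher in MEC (median LFC 0.64), and 6 of 10 became relatively higher there with age (median change 1.92). Their part in the differences of the release genes was not tested. Syt4 changed most clearly: the mean of MEC minus that of LEC was 0.80 at the younger and -0.12 at the older ages, a change of -0.98 ± 0.15 (adjusted p = 1.80e-05). At P2 its MEC LDeep samples stood at 9.99, 9.50, 9.47, 8.77 and 9.24 and its LEC LDeep samples at 8.55, 8.78, 8.92, 8.35 and 8.66. The mean of older minus younger samples was -1.04 in MEC and -0.12 in LEC. Doc2b went from -0.28 to -1.31 between regions (change -1.10 ± 0.22, adjusted p = 0.00123), its age difference being -2.26 in MEC and -1.23 in LEC. Rims2 went from 0.47 to -0.04 (adjusted p = 0.00159) and Erc2 from 0.20 to -0.24 (adjusted p = 0.00123). Toward MEC, Snap25 went from -0.18 to 0.35 (adjusted p = 0.00273) and Cplx1 from 0.07 to 0.49 (adjusted p = 0.00815).

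Syt2 was not called between regions (0.64 ± 0.24, adjusted p = 0.0597), nor for a change of that difference with age (1.37 ± 0.48, adjusted p = 0.0920). At P45 its MEC samples stood between 4.70 and 5.09. Its LEC samples stood at 2.77, 5.64, 1.88 and 1.73 in LII and at 3.53, 5.52, 2.38 and 3.27 in LDeep, the high value in each being replicate 2, in which the cerebellar list summed to 777 and 822 CPM. Without the 9 libraries the regional LFC was 0.78 (adjusted p = 9.54e-05) and its change with age 2.33 (adjusted p = 4.72e-07).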

How the data were processed

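Gene-level counts of 64 samples were used. Per the labels and the study's methods, the authors made stranded, ribosomal RNA-depleted libraries, demultiplexed with bcl2fastq 1.8.4, trimmed with Trimmomatic 0.33, aligned to rn6 with STAR 2.4.0 and deposited raw read counts per RefSeq gene from featureCounts (Subread 1.4.6-p1). Read pairs that overlap several genes were counted for each of them, so overlapping genes can share reads.

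Here, groups came from the sample titles. edgeR 4.0.16 (R 4.3.3) kept 12521 of 17260 genes with filterByExpr, scaled by TMM and fitted 16 group means by quasi-likelihood over 64 samples, with BH adjustment over all genes and a threshold of 0.05. SEs were derived from the LFC and F. Alternatives used DESeq2 1.42.0, limma 3.58.1 (voom with quantile normalization, the study's own method), other scalings and filters, replicate blocks and left-out samples. The scripts were tested on simulated data. Of 100 replicate pairs none were identical, and the lowest chi-square per degree of freedom was 2.82. The depth of 3894334 to 11439143 counts sets the precision of low genes such as Syt9.

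The members and gene lists were chosen with earlier results of these data known. Genes named in the text were the 5 largest calls in each direction of age, layer and region (3 for changes between groups and for other presynaptic genes), with further members given by role or chosen after their values were seen. Promoters came from RefSeq (GRCr8), and no coordinate was moved between builds.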

Additional observations from a re-analysis of the deposited data

Results flagged for a closer look

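Each of 23 named genes was taken in each group of 4 or 5 samples, giving 276 sets of values. By Dixon's criterion 25 values stood apart from the rest of their set, where chance flags about 1 in 20. Several libraries were flagged for more than 1 gene, and values of different genes in a library are not independent. All values here are log2 CPM. The library labelled MEC LII P2 replicate 1 stood apart for Syn3 (5.81), Syt10 (3.37) and Slc17a6 (4.24). MEC LDeep P2 replicate 4, with the highest ribosomal RNA share, did so for Syn3 (7.39), Syt2 (2.77) and Rims2 (8.23). LEC LDeep P2 replicate 3 stood apart for Vamp1 (4.63), Rph3a (5.81) and Slc17a6 (7.65).

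LEC LII P9 replicate 4 stood apart for Syn3 (5.83), Syt12 (2.04) and Cplx1 (7.47), and replicate 1 of the same group for Rab3c (6.64). In MEC LII at P9 the values were 8.77 for Sv2a and 7.21 for Rph3a in replicate 2, 5.11 for Syt17 in replicate 1 and 7.0 for Unc13c in replicate 3. In MEC LII at P45 they were 4.70 for Syt2 and 10.03 for Dnm1 in replicate 1, 6.30 for Synpr in replicate 3, and 2.62 for Syt6 and 5.46 for Unc13c in replicate 4. Syt17 stood apart in MEC LDeep P45 replicate 3 (6.50), Rims2 in LEC LII P45 replicate 2 (7.71) and Dnm1 in LEC LDeep P45 replicate 4 (11.11).

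Effects that differed between groups, by the edgeR test of the difference itself, were the layer difference with age for Rab3c (-0.47), Syt11 (-0.28), Cplx1 (0.46), Erc2 (-0.40) and Amph (-0.50). For the regional difference with age they were Snap25 (0.53), Rims2 (-0.52), Doc2b (-1.10), Cplx1 (0.42), Erc2 (-0.44) and Syt4 (-0.98). The layer difference differed between regions for Sv2c (1.59) and Syt10 (-1.72). These are log2 differences of LFC.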

How the results depend on the processing

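Counts are of genes among the 48 called by the test named, and the share of all genes called was not taken in these fits. The age counts stayed within 1.5 times their values under every alternative run. From P2 to P9, 2 were lower with at least 10 counts required in every sample. From P23 to P45, 2 were higher with total counts or voom with quantile normalization, 4 without the 5 libraries and 3 without the 9, and 1 was lower with at least 10 counts, without the 5 libraries or with DESeq2. Between layers 5 were higher with total counts or in MEC alone, and 20 were lower with voom and quantile normalization and 18 in MEC alone. Within MEC 2 were higher with voom and quantile normalization, and 10, 12 and 11 lower with total counts, at least 10 counts and voom. Within LEC 2 were higher with total counts, RLE, at least 10 counts, voom, both replicate blocks, the ribosomal covariate, DESeq2 or without the 9 libraries, and 13 and 14 were lower with total counts and at least 10 counts. For layer by age 0 were higher in LEC alone and 2 without the 9 libraries, and 14, 11 and 8 lower without the 5, without the 9 and with the ribosomal covariate. For region by age 4 were higher with either replicate block or without the 5 libraries, and 5 without the 9. For layer by region 0 were higher with voom, 2 with the random block, without the 5 or with the ribosomal covariate, 4 with the fixed block and 3 with DESeq2, and 0 lower with at least 10 counts. The cause was not tested.

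Leaving out 1 replicate gave, for higher and lower, 35 to 36 and 7 for age, 28 to 33 and 4 to 5 for P2 to P9, 29 to 34 and 7 to 8 for P9 to P23, 0 to 2 and 0 to 1 for P23 to P45, 3 to 4 and 24 to 33 for layer, 4 to 5 and 8 to 25 in MEC, 1 to 2 and 11 to 27 in LEC, 7 to 10 and 9 to 11 for region, 1 and 2 to 9 for layer by age, 2 to 4 and 4 to 5 for region by age, and 0 to 2 and 1 for layer by region. Signs turned for the age LFC of Syt6 (-0.0762) and Unc13a (-0.0112) with the ribosomal covariate, of Rims2 in MEC alone (-0.0389) and of Erc2 in LEC alone (0.0936), and for the layer LFC of Syt9 with voom (-0.00369) and in LEC alone (-0.0914) and of Syt10 in LEC alone (0.0383). The labels do not say whether a replicate number marks 1 animal. Same-numbered samples of an age had a mean correlation of 0.134 over 96 pairs, 55 of them over 0.1, against -0.043 over 300 differently numbered pairs, 59 of them over 0.1, and 37 of 64 samples correlated best with their own number. The consensus correlation within a number was 0.123. This is a hint from the data and not from the design. For its miRNA samples the paper states that an age-specific number tells which LII and LDeep samples share an animal. It gives no such statement for the numbers of these libraries. The fit without the block was kept as the main one, and whether it should hold a block was not settled. Of the calls for single genes, the fixed replicate block ended 0 of 112 and the random block 5 of 233. The fixed block could not test the age and step calls, as a block holds a single age. With samples of the same age and replicate number summed, 116 of the age and step calls were kept and 5 were not. Depth limits the low genes Syt2, Syt6, Syt9 and Syt10. The libraries left out and the ribosomal covariate were chosen after seeing the data.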
